A study of Mus musculus with 16 samples.

Results

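Small RNA was compared between exosomes of AFT024 and the AFT024 cells that released them. The members were chosen by label: 4 of the 16 samples of the series, 2 of AFT024 exosomes and 2 of AFT024 cells, all small RNA. AFT024 is a stromal cell line from the fetal liver of C57BL/6 mice at 14.5 dpc (days post coitum), and its labels call it supportive of hematopoietic stem and progenitor cells. Exosomes are small membrane vesicles that cells secrete. No allele or agent is named in the labels for either group, so their labels differ by compartment only. Exosome RNA was pooled before it was split into 2 sequencing replicates, and the files hold 1 merged value for each group. Each ratio below is thus a comparison of 2 merged libraries, with no replicate behind it and no p-value. Intervals cover counting error only, since PCR reads without molecular identifiers are not independent molecules. Exosomes and cells of BFC012, a line from the same source labelled as not supportive, are given where they show how the AFT024 values compare. With 1 line of each kind, nothing here can be assigned to the support of stem cells. Which serum the cultures were grown in is not named in the labels.

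A microRNA (miRNA) is cut from a hairpin precursor, whose 2 strands, the 5p and the 3p arm, can each be loaded into an Argonaute protein. Bases 2 to 8 of the loaded arm, the seed, pair with target mRNAs, so arms with 1 seed form a family. Exosomes carry miRNAs out of the cell, and some short motifs have been described as sorting signals for export or retention. The files list 2386 arms of 1193 hairpins, 5p and 3p for each. The mature sequences below are from RefSeq (GRCm38.p6), 5′ to 3′, with the seed in capitals, and positions count from 1 at the 5′ end.

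The first set shows arms that were far more frequent in exosomes than in cells: 2 erythroid miRNAs of 1 hairpin cluster, miR-451a and miR-144, then the leukocyte miRNAs miR-142a and miR-223, and the imprinted miR-127 and miR-369.
miR-451a-5p: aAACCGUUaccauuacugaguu
miR-144-3p: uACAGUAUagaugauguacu
miR-142a-5p: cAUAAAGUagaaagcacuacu
miR-223-3p: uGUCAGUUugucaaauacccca
miR-127-3p: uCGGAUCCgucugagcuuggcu
miR-369-3p: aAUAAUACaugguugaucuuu

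The second set shows arms that were more frequent in cells: miR-21a and miR-182, which were abundant in both compartments, and miR-434 and miR-541, which come from the same imprinted cluster as miR-127 and miR-369.
miR-21a-5p: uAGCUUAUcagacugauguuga
miR-182-5p: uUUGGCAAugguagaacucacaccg
miR-434-3p: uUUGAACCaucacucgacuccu
miR-541-5p: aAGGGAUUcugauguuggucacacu

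The third set shows close relatives whose ratios differed: 4 let-7 members with 1 seed, miR-10a and miR-10b, miR-103 and miR-107, miR-29a and miR-29b, and miR-221 and miR-222.
let-7f-5p: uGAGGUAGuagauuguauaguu
let-7a-5p: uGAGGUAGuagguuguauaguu
let-7c-5p: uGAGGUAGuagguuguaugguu
let-7b-5p: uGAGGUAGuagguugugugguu
miR-10a-5p: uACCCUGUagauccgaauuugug
miR-10b-5p: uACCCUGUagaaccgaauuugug
miR-103-3p: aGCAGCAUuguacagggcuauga
miR-107-3p: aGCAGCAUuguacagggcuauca
miR-29a-3p: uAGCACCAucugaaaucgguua
miR-29b-3p: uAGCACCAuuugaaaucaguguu
miR-221-3p: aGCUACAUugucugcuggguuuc
miR-222-3p: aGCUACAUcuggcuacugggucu

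The fourth set shows both arms of 2 hairpins in which 1 arm was higher in exosomes and the other lower.
miR-15b-5p: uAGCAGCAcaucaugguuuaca
miR-15b-3p: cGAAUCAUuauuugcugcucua
miR-28a-5p: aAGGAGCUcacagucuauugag
miR-28a-3p: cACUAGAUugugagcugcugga

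AFT024 exosomes held 1120450 reads over 1003 arms and AFT024 cells 17293776 reads over 1389 arms. On the authors' normalized scale 1 exosome read was worth 7.51 times as much as 1 cell read, so every ratio below is exosome reads over cell reads, times 7.51. A group with 0 reads was set to a floor of 3 reads, which is 2.68 RPM (reads scaled to an equal total per group) in exosomes and 0.173 in cells. Exosomes are therefore the limit of detection: 515 arms had reads only in cells, with up to 1322 reads, and 129 only in exosomes, with up to 94. The most-read arm took 19.1% of exosome reads and 18.2% of cell reads. Of the 50 most-read arms of each group, 39 were the same. As a check of the labelled cell type, the mesenchymal miRNAs miR-143 and miR-145 took 5.05% of cell reads and miR-199 and miR-214 took 3.06%. Nearly all of the 5.05% was miR-143-3p, with 866651 of 872860 reads, while miR-145a had 2196 for 5p and 3304 for 3p. The miR-183 cluster, which was not among the markers chosen for this check, took a larger share, 5.48%. The miRNAs typical of blood cells took 0.0954% and the epithelial list 0.00396%. The list for hepatocytes, muscle and neurons took 0.186%. Within that list the hepatocyte miR-122-5p had 0 cell reads, while miR-192-5p had 16374.

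Of the 2386 arms, 485 reached 10 RPM in at least 1 group. Of these, 155 were 2-fold or more higher in exosomes (32.0%), 174 were 2-fold or more lower (35.9%) and 156 lay within 2-fold. The median log2 ratio was -0.24, with quartiles of -1.47 and 1.51. Of the arms kept, 132 reached the filter in exosomes only and 30 in cells only, so an arm in either set was, by this choice, higher in that group in RPM. In RPM every log2 ratio is 1.04 larger, which gives 231 arms higher and 77 lower. "Higher" and "lower" below are calls on the deposited scale. In RPM a lower call is lost where the log2 ratio lies between -2.04 and -1, a higher call is gained from -0.04 up, and the sign turns between -1.04 and 0. The higher arms took 18.6% of exosome reads against 1.52% of cell reads, and the lower arms 25.5% against 59.3%. Both sets were chosen by the ratio, which itself favours these directions, so the shares describe only how abundant the sets were.

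**Figure D1:**
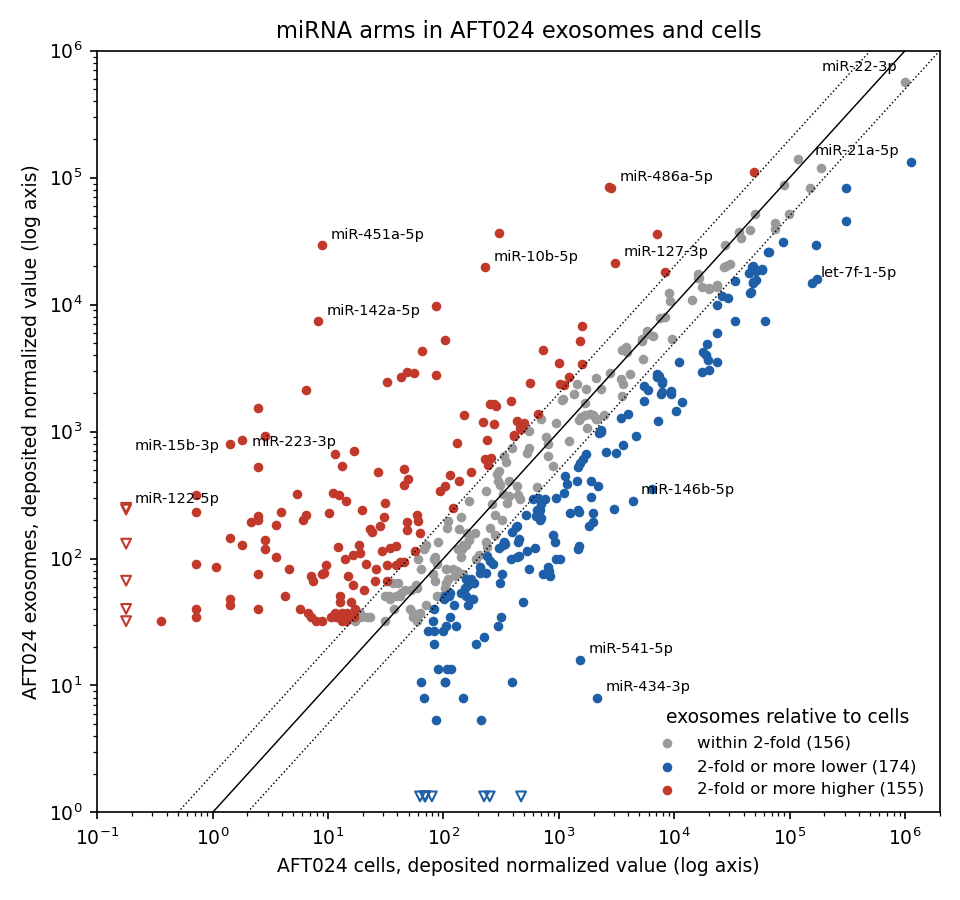
Deposited normalized value of the 485 kept miRNA arms in AFT024 cells (x) and AFT024 exosomes (y), both on log axes; colours give the call at 2-fold (dotted lines) and open triangles mark arms with 0 reads in 1 group, drawn below the value of 1 read. miR-451a-5p, miR-142a-5p and miR-223-3p lie far above the line, while let-7f-5p, miR-434-3p and miR-541-5p lie below it.

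The miRNAs known from blood cells stood out most. The list holds erythroid miR-451a, miR-144 and miR-486, and leukocyte miR-142a, miR-150 and miR-223. Of its 10 arms kept, 9 were higher in exosomes and 1 lower, with a median log2 ratio of 8.36 against -0.24 over all arms kept. Of these 10 arms, 7 reached the filter in exosomes only and 1 in cells only, and the other 2 were both higher. Together these miRNAs took 7.05% of exosome reads and 0.0954% of cell reads. Most of both shares were the 5p entries of miR-486a and miR-486b, which can share reads. They had 31218 and 31331 of 78983 exosome reads, and 7963 and 7624 of 16505 cell reads.

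miR-451a-5p, which helps red cell precursors mature, had 10975 reads in exosomes and 25 in cells. This is a ratio of 3298 (95% interval 2233 to 5099), the highest of the arms with at least 100 RPM in 1 group and 20 reads. miR-144, cut from the same erythroid transcript, had 790 against 18 reads for its 5p arm (ratio 330) and 347 against 8 for its 3p arm (ratio 326). The hairpins lie next to each other on chromosome 11 (chr11:78073005-78073241, GRCm38.p6, plus strand, between genes), and all 3 kept arms of this cluster were higher in exosomes. The cell reads were near the floor, so the size of these ratios rests on few cell reads.

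The leukocyte arms showed the same contrast. miR-142a-5p, abundant in all white cells, had 2764 reads in exosomes and 23 in cells, a ratio of 903 (600 to 1427). Its 3p arm had 119 against 2 reads, a ratio of 447 with a wide interval of 121 to 3734. miR-223-3p, a miRNA of neutrophils and monocytes, had 320 against 5 reads (ratio 481, 204 to 1491). miR-150-5p, typical of mature lymphocytes, had 1096 against 137 reads (ratio 60.1). Each of these 4 arms had few reads in the far deeper cell libraries.

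miR-486 was the blood miRNA with the most cell reads. Its 2 loci, miR-486a-5p and miR-486b-5p, had 31218 and 31331 reads in exosomes and 7963 and 7624 in cells (ratios 29.5 and 30.9). These entries can share reads. The 3p arm of miR-486a went the other way, with 9 exosome reads and 631 cell reads (ratio 0.107, 0.0488 to 0.205).

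Exosomes and cells of AFT024 were also sequenced as polyA RNA, in separate samples, so transcripts of blood cells could be read beside these miRNAs. Of 11 erythroid marker transcripts, 7 are listed in that table, 4 of them at 0 in each compartment, and their summed level was 0.358 FPKM in exosomes and 0.199 in cells. The beta globins Hbb-bs and Hbb-bt are listed at 0 in both, and Hba-a1 at 0.242 FPKM in exosomes and 0.0834 in cells. Of 11 leukocyte markers, 9 are listed, with sums of 9.77 and 11.8 FPKM. Most of this was Itgam, at 6.43 in exosomes and 10.6 in cells, while the pan-leukocyte gene Ptprc was at 0.0294 and 0.0414. Other leukocyte markers were higher in exosomes: Fcer1g (2.17 against 0.696), Coro1a (0.977 against 0.365), Tyrobp (0.130 against 0) and Cd79a (0.0374 against 0.0329). Lyz2 was at 0 in exosomes and 0.0389 in cells, and Laptm5 and Cd3e were at 0 in both. Platelet markers, 3 of 4 listed, summed to 9.86 and 16.5 FPKM. Among them Ppbp was at 0.0534 in exosomes and 6.17 in cells, Itga2b at 9.68 and 10.3, and Pf4 at 0.123 and 0. Messenger RNA of red cells was thus listed near 0 in exosomes that held 10975 reads of miR-451a-5p. How these markers relate to the miRNAs was not tested.

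miRNAs of other tissues were mixed. Of 13 kept arms of the list for hepatocytes, muscle and neurons, 3 were higher and 5 lower, with a median log2 ratio of 0.01. These counts lie near the 32.0% and 35.9% of all arms kept, and 4 of the 13 arms reached the filter in exosomes only. miR-122-5p, the main miRNA of hepatocytes, had 91 reads in exosomes and 0 in cells, which is at least 228-fold higher. The hepatocyte transcripts Alb and Apoa1 are listed at 0 FPKM in both compartments. The muscle miRNA miR-133a-3p had 81 against 7 reads at its second locus (ratio 86.9). The neural miR-9-5p, in contrast, was lower at all 3 loci, for example 27 against 2349 reads at miR-9-1 (ratio 0.0864). The members of this list with the most exosome reads stayed within 2-fold. These were miR-192-5p, with 2201 against 16374 reads (ratio 1.01), and miR-128-3p at both loci (ratios 1.44 and 1.67). The endothelial miR-126a was higher in both arms, with 1308 against 2832 reads for 5p and 320 against 675 for 3p (ratios 3.47 and 3.56).

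Imprinted miRNAs of the Dlk1-Dio3 region, which are made from the maternal chromosome, held both the lowest ratios among the named arms and many arms higher in exosomes. Of 37 arms kept, 22 were higher in exosomes, 9 lower and 6 within 2-fold, and the median log2 ratio was 1.45, beside 32.0% higher and 35.9% lower over all arms kept. Of the 37, 20 reached the filter in exosomes only and 8 in cells only, and of the other 9, 5 were higher and 1 lower. In share of reads the region took 1.23% of exosome reads and 0.230% of cell reads. A pair of neighbouring blocks of hairpins on chromosome 12 hold nearly all of them. The first, chr12:109580233-109595388, had 5 higher and 5 lower arms of 11. The second, chr12:109709060-109743795, which ends in the noncoding gene Mirg, had 17 higher and 3 lower of 25.

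Among the higher arms, miR-127-3p, which lies antisense to the retrotransposon-derived gene Rtl1, was the most abundant. It had 8005 reads in exosomes and 8639 in cells, a ratio of 6.96 (6.75 to 7.18). miR-369-3p, within an exon of Mirg, had 927 against 91 reads (ratio 76.5). Its own 5p arm had 19 against 109 and stayed within 2-fold. miR-493-5p had 202 against 37 reads (ratio 41.0), miR-409-3p 653 against 1093 (ratio 4.49) and miR-410-3p 897 against 1577 (ratio 4.27).

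The 9 lower arms, grouped here by their ratio, were rare in exosomes. Together they had 69 reads in exosomes and 14084 in cells, 36.6% of the cell reads of the region's kept arms and 0.503% of the exosome reads. miR-434-3p had 3 exosome reads and 6002 cell reads, a ratio of 0.00376 (0.000774 to 0.0110), the lowest of the named arms. miR-541-5p had 6 against 4278 (ratio 0.0105). miR-341-3p had 0 against 631 reads, at least 28.0-fold lower in exosomes. miR-540-3p had 3 against 414 reads, miR-337-5p 0 against 223, miR-380-3p 0 against 176 and miR-134-5p 5 against 325. The remaining 28 arms had 13650 reads in exosomes and 24448 in cells.

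BFC012 gave a second view of this region, because its cells had few of these reads. For the same 37 arms the cell reads were 38532 in AFT024 and 524 in BFC012. The exosome reads were 13719 and 10616. AFT024 cells were 10-fold or more above BFC012 cells in 30 of the 37 arms. The same count over all 485 kept arms was not made. The 37 arms were kept on AFT024 values, 20 by exosomes only and 8 by cells only. For such arms this choice favours AFT024 over BFC012 in that compartment. Between the exosomes of the lines, 15 of the 37 lay within 2-fold (40.5%), against 289 of all 485 kept arms (59.6%). Between the cells 63.1% of the 485 did. The median log2 difference of AFT024 from BFC012 was 5.71 in cells and 0.26 in exosomes, with 0 reads set to the floor. miR-127-3p had 164 reads in BFC012 cells and 6342 in BFC012 exosomes, and miR-369-3p 43 and 972. Over these 37 arms the lines thus differed far more in the cell level than in the exosome level. The same medians over all 485 kept arms were not computed, so whether this is particular to the region was not tested.

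**Figure D2:**
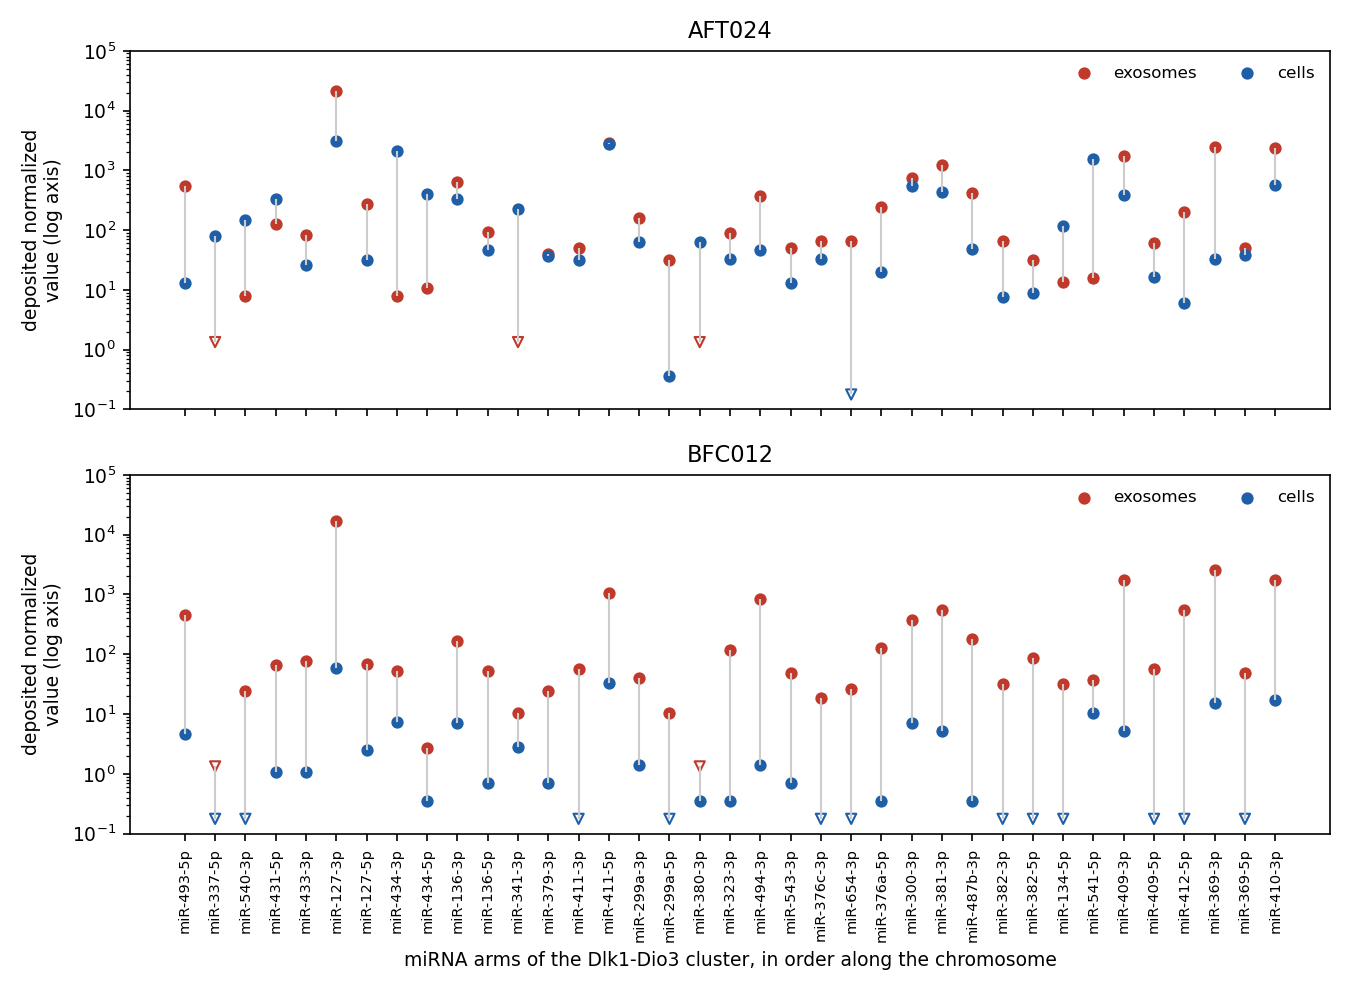
Deposited normalized value (log axis) of the 37 kept arms of the Dlk1-Dio3 region in exosomes (red) and cells (blue) of AFT024 (top) and BFC012 (bottom), in order along the chromosome; open triangles mark 0 reads, drawn below the value of 1 read. Cell values drop from the top to the bottom panel in most arms while exosome values move less, and miR-434, miR-541, miR-341 and miR-540 are high only in AFT024 cells.

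The let-7 family, which represses growth genes such as Lin28 and Ras, was on the whole lower in exosomes. Of 25 kept arms of let-7 and miR-98, 18 were lower, 6 within 2-fold and 1 higher, with a median log2 ratio of -1.46. In RPM the median stayed below 0, at -0.42, but only 7 arms were lower by 2-fold and 4 were higher. The family took 5.69% of exosome reads and 13.7% of cell reads. The arm that was higher, let-7k-5p, had 16 against 4 reads.

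Members with 1 seed, GAGGUAG, differed by more than 10-fold among themselves. let-7f-5p had 5550 exosome reads and 441553 cell reads at its first locus, a ratio of 0.0944 (0.0920 to 0.0970). let-7d-5p followed at 0.120 and let-7i-5p at 0.175, then let-7e-5p at 0.254, let-7a-5p at 0.273, let-7g-5p at 0.384, let-7c-5p at 0.418 and miR-98-5p at 0.560. let-7b-5p, with 2010 against 14772 reads, had a ratio of 1.02 (0.975 to 1.07). Intervals of neighbours in this order lay apart except for let-7e and let-7a, whose intervals (0.243 to 0.265, and 0.265 to 0.281) met. The base changes from let-7f follow this order for a part of the family. let-7a carries A12G, let-7c A12G and A19G, and let-7b A12G, A17G and A19G, and their ratios went from 0.0944 to 0.273, 0.418 and 1.02. Their GC content was 31.8%, 36.4%, 40.9% and 45.5% in the same order. The family has exceptions, since miR-98 has 31.8% GC and a ratio of 0.560, and let-7d and let-7i have 40.9% and ratios of 0.120 and 0.175. How many mismatches the authors' counting allowed is not given in the sources used here, so reads of such close members may have been shared between entries. BFC012 gave 0.0750, 0.328, 0.954 and 3.27 for let-7f, let-7a, let-7c and let-7b.

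**Figure D3:**
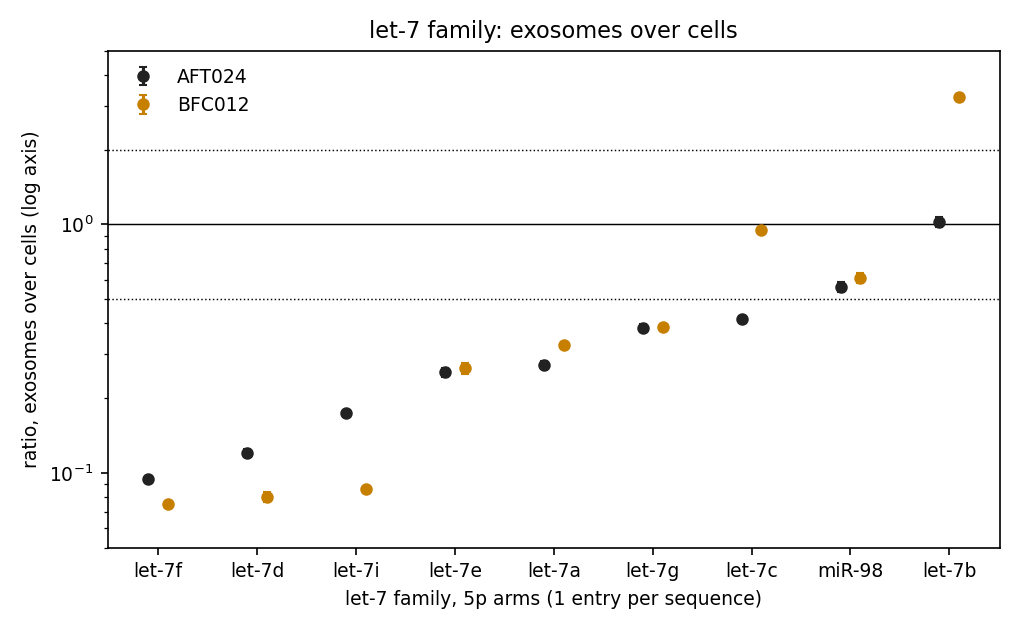
Ratio of exosomes to cells (log axis) for the 9 let-7 family sequences with the seed GAGGUAG, as points with exact 95% counting intervals, in AFT024 (black) and BFC012 (orange); dotted lines mark 2-fold. In both lines let-7f is lowest and let-7b highest, from 0.0944 to 1.02 in AFT024.

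Other pairs of close relatives also parted. Among the kept arms with a RefSeq sequence, 13 pairs of equal length differed at 1 base, and the ratios of 6 pairs differed by 2-fold or more, with a range from 1.05 to 156. In 9 of the 13 pairs the member with the higher ratio had the extra G or C, in 3 both had equal GC, and in 1 it had fewer. The pairs share members within let-7, so they are not independent of each other.

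The widest pair was miR-10. miR-10a-5p, encoded in the Hoxb cluster, had 31101 exosome reads and 424829 cell reads, a ratio of 0.550. miR-10b-5p, in an intron of Hoxd3 on chromosome 2, differs from it by U12A and had 7363 against 646 reads, a ratio of 85.6 (79.0 to 92.9). In cells miR-10b was thus rare beside miR-10a, and in exosomes the difference was much smaller. miR-107-3p, which differs from miR-103-3p by G22C, had 2545 against 4482 reads (ratio 4.27), and miR-103-3p 2979 against 23273 at its second locus (ratio 0.962). miR-29a-3p and miR-29c-3p, which differ by C10U, were alike, at 0.885 (0.869 to 0.901) and 0.844 (0.691 to 1.02).

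Clustered relatives differed as well. miR-29b-3p shares the seed of miR-29a-3p and lies in the same cluster on chromosome 6 (chr6:31062660-31063093). It had 47 exosome reads against 4205 in cells at its first locus, a ratio of 0.0840. miR-29a-3p had 12506 against 106187, a ratio of 0.885. From miR-29a it differs by C10U, G18A, U21G and A22U and by 1 more base at the 3′ end. miR-221-3p and miR-222-3p, regulators of the cell-cycle inhibitor p27 and neighbours on chromosome X, had ratios of 5.09 (13558 against 19996 reads) and 0.427 (3747 against 65890). Their seed is identical, and 12 of 23 bases differ after it.

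On the deposited scale most arms with the highest counts were as frequent in exosomes as in cells or less so, which does not hold in RPM for several of them. miR-22-3p led the exosome reads, with 213807 against 2817252 in cells (ratio 0.570), but in RPM it stood at 190822 against 162906. miR-21a-5p, which is widely expressed and promotes growth, led the cell reads, with 3140349 against 50037 in exosomes. Its ratio of 0.120 (0.119 to 0.121) was the lowest among the 8 most-read arms of each group apart from the let-7f loci. miR-143-3p, a miRNA of smooth muscle and mesenchymal cells, had 16962 against 866651 reads (ratio 0.147), and miR-182-5p 31185 against 865901 (ratio 0.271). miR-31-5p and miR-99b-5p were nearly even, at 0.984 (32912 against 251318) and 1.19 (52646 against 332891). In RPM both were past 2-fold higher, at 29374 against 14532 and 46986 against 19249. On the deposited scale miR-25-3p was the one most-read arm other than miR-486 above 2-fold, with 41205 against 138266 reads and a ratio of 2.24.

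Several families had more arms lower than higher in exosomes on the deposited scale, beside 35.9% lower and 32.0% higher over all arms kept. Of 8 arms of miR-199 and miR-214, cut from the Dnm3os transcript and other loci, 7 were lower and 0 higher (median log2 ratio -1.50). miR-199a-3p had 7019 against 162138 reads at its second locus (ratio 0.325). Of 4 arms of miR-143 and miR-145, 3 were lower (median -2.19), and in RPM 2 were lower and 1 higher. All 6 arms of the miR-183 cluster, which takes in miR-96 and miR-182, were lower (median -2.77), and 4 of 6 remained past 2-fold in RPM. miR-96-5p had 73 against 5613 reads (ratio 0.0977). Of 12 arms of the miR-30 family 9 were lower (median -1.67), of 10 of miR-181 6 (median -1.68) and of 5 of miR-29 3 (median -2.36), with 0 higher in each of the 3 families. For miR-199 and miR-214 only 2 arms were past 2-fold in RPM, for miR-30 5 and for miR-181 3, and there 2 arms of miR-181 were higher.

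The remaining lists had smaller medians or fewer arms, and many of their lower calls were lost in RPM. Of miR-148 and miR-152, 5 of 6 arms were lower (median log2 ratio -2.05), 3 of them in RPM. Of miR-26 and miR-101 5 of 7 were lower and 2 higher (-1.69), with 1 lower in RPM. The miR-322 and miR-503 cluster had 6 lower and 1 higher of 10 (-1.66), with 3 lower in RPM. Of miR-10 and miR-196, 3 of 6 were lower and 1 higher (-1.42), with 2 lower in RPM. Of the inflammation and activity list, with miR-146, miR-155, miR-132 and miR-212, 5 of 7 were lower and 1 higher (-1.37), with 3 lower in RPM. Of miR-130 and miR-301 4 of 7 were lower (-1.32), 3 of them in RPM. Of miR-34 and miR-449 4 of 7 were lower (-1.32), and in RPM 0 were lower and 1 higher. The miR-15 and miR-16 list had 6 lower and 1 higher of 9 (-1.32), with 1 of each in RPM. Of miR-221 and miR-222 3 of 4 were lower and 1 higher (-1.29), and in RPM 0 were lower. Of miR-23, miR-24 and miR-27 5 of 9 were lower and 2 higher (-1.16), and in RPM 2 were lower and 3 higher. The miR-17 to miR-92 list had 6 lower and 3 higher of 19 (median -0.55, which was 0.48 in RPM), and miR-99, miR-100 and miR-125 had 4 lower and 0 higher of 12 (-0.49, which was 0.55 in RPM). In miR-320 and miR-423, 1 of 3 arms was higher (0.08). The Sfmbt2 cluster had 2 higher and 2 lower of 5 kept (0.82) and the epithelial list 2 higher and 1 lower of 4 (0.91). Of the 5 Sfmbt2 arms, 3 reached the filter in exosomes only, 2 in cells only and 0 in both. Of the 4 epithelial arms, 3 reached it in exosomes only, and the other was lower. The filter thus favoured these directions.

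**Figure D4:**
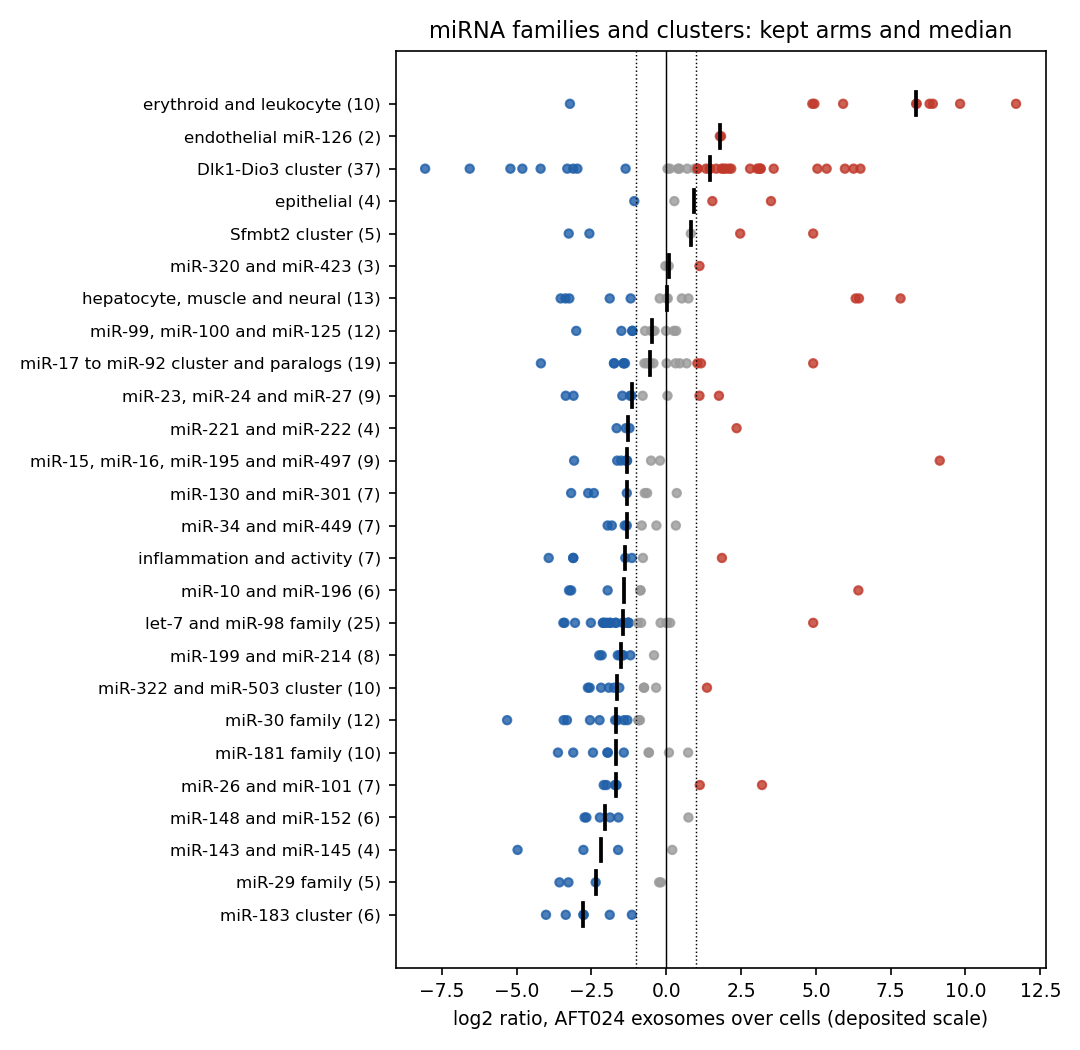
Log2 ratio of AFT024 exosomes to cells on the deposited scale for the kept arms of 26 miRNA lists (number of arms in brackets), coloured red where 2-fold or more higher and blue where 2-fold or more lower; black bars are list medians and dotted lines mark 2-fold. The erythroid and leukocyte list has the highest median, 8.36, and the miR-183 cluster the lowest, -2.77.

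Among seeds shared by 3 or more sequences, AUUGCAC had the highest median log2 ratio, 1.16, and GAGGUAG of let-7 the lowest, -1.88. Of 5 sequences with the seed AUUGCAC, 4 were higher and 0 lower: miR-25-3p, miR-92b-3p (510 against 1865 reads, ratio 2.05), miR-32-5p (74 against 170, ratio 3.27) and miR-363-3p (12 against 0). miR-32-5p and miR-363-3p reached the filter in exosomes only, so the filter favoured a high ratio for them, and of the other 3 sequences 2 were higher. miR-92a-3p, the fifth and the most-read, had a ratio of 0.637 at its first locus (44341 against 523067). At its second locus the same mature sequence had a ratio of 1.36 (4595 against 25301), so its entries lay on opposite sides of 1. Of 6 sequences with the seed AGCAGCA, that of miR-15 and miR-16, 4 were lower and 0 higher (median -1.43). miR-16-5p had 9767 against 187169 reads at its first locus (ratio 0.392). miR-322-5p, of the same seed, had 1110 against 49207 (ratio 0.169).

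The 5p and 3p arms are cut from the same hairpin, so their shares can be compared within each compartment. Of 281 hairpins with 20 reads or more in both groups, 125 had 5p shares whose intervals lay apart between exosomes and cells. In 28 of the 281 the arm with more reads changed. Among these 28, the intervals of miR-345, miR-382, miR-700 and miR-7a-1 overlapped, so their change lay within counting error. In 12 hairpins 1 arm was higher in exosomes and the other lower, and 3 of these kept both calls in RPM: miR-28a, miR-486a and miR-760. The difference between the log2 ratios of both arms does not depend on the scaling, and in the 12 it ran from 2.48 to 13.60. Choosing hairpins with arms past 2-fold in opposite directions itself set a minimum for this difference.

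miR-28a, from an intron of Lpp, was the clearest well-covered case. Its 5p arm had 644 exosome reads and 32607 cell reads, and its 3p arm 864 and 3142. The 5p share was 42.7% (40.2 to 45.2) in exosomes and 91.2% (90.9 to 91.5) in cells, and in BFC012 it was 39.0% and 90.6%. miR-15b, from an intron of Smc4, had 942 exosome reads of 5p and 300 of 3p, but 22008 and 4 in cells. The 3p arm was thus nearly absent in cells (ratio 563, 218 to 2082), as in BFC012 cells with 2 reads. miR-339 went from 51.5% 5p in cells to 94.8% in exosomes, and miR-221 from 11.8% to 0.827%. miR-25 went from 2.19% to 0.295%. miR-152, not among the 12, went from 64.1% 5p in cells to 22.5% in exosomes, so the arm with more reads changed.

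The hairpin miR-760 differed between the cells of the lines. In AFT024 cells its 5p arm had 1322 reads and its 3p arm 7, and in BFC012 cells 0 and 1338. Exosomes held only the 3p arm, with 198 reads in AFT024 and 110 in BFC012. The ratio of 213 for miR-760-3p in AFT024 thus rests on the cell values of 1 arm that were the reverse in BFC012, where the ratio was 0.620. Whether the arms are exchanged in 1 of the deposited cell columns cannot be told from these files. With the AFT024 cell values of the arms exchanged, the ratio of miR-760-3p would be 1.13. Without miR-760, 11 hairpins had arms called in opposite directions, and in 27 the arm with more reads changed. Among 261 hairpins with 20 reads or more in the cells of both lines, the 5p shares of its cells lay 99.5 points apart, the largest gap, and the next largest was 54.5.

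Sequence features of the arms were read over the 368 distinct RefSeq sequences among the kept arms (399 arms matched). Of these sequences 109 were higher and 132 lower. The 3p arm made up 61.5% of the higher and 40.9% of the lower sequences, against 52.2% of all. The motifs searched, on the mature strand as single-stranded RNA, were GGAG, then CCCU, as well as GGCU, and finally AGAAC, with overlaps between them not removed. CCCU was in 9.51% of all sequences, 13.8% of the higher and 4.55% of the lower. The 35 sequences with it had a median log2 ratio of 0.59, with 15 higher and 6 lower, and the 333 without it -0.35. GGAG was in 11.9% of the higher, 10.6% of the lower and 9.51% of all. GGCU was in 17.4%, 12.9% and 13.9%. AGAAC was in 13 sequences only, 1 higher and 6 lower. By GC content, the 88 sequences from 35% to under 45% had the lowest median log2 ratio, -1.37, with 19 higher and 49 lower. The 27 sequences under 35% had -0.36, the 156 from 45% to under 55% 0.01, and the 97 above 0.08. These are descriptions of overlapping families, and the motif letters are no evidence of a binding protein.

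Arms with a high registry number are many of them rarely studied. Of 114 kept arms numbered over 700, 61 were higher and 15 lower (median log2 ratio 1.25), and of 371 up to 700, 94 and 159 (-0.64). Of the 114, however, 60 reached the filter in exosomes only, which favours a high ratio. With 10 RPM required in both groups, 12 of 50 arms over 700 were higher and 11 lower, and 36 and 133 of 273 up to 700. The arms over 700 took 3.84% of exosome reads and 1.28% of cell reads. Of the 86 kept arms without a RefSeq sequence, 43 were higher and 23 lower, beside 32.0% higher and 35.9% lower over all arms kept. How many of the 86 reached the filter in exosomes only was not counted. They take in well-known arms such as miR-143-3p, miR-486a-5p and miR-30d-5p, so a missing match does not mark a rarely studied arm. Among the arms numbered over 700 the most-read in exosomes was miR-6240, with 13684 against 846 reads for 3p and 3653 against 240 for 5p (ratios 122 and 114). Its arms were thus near each other, unlike those of the hairpins with arms called in opposite directions. Only its 5p entry was matched to a RefSeq sequence. miR-2137-3p had 574 against 7 reads (ratio 616) and miR-3535-3p 1034 against 241 (ratio 32.2).

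The contrast of exosomes with cells was similar in the other line. The 2 comparisons share no group. Of 427 arms kept in both lines, 115 were higher in both, 87.8% of the 131 higher in AFT024 and 77.7% of the 148 higher in BFC012. Lower in both were 111, 71.6% of 155 and 78.7% of 141. In BFC012, 35.8% of 461 kept arms were higher and 32.1% lower. Across the 427 arms Pearson's r of the log2 ratios was 0.83 and Spearman's rho 0.85. This is a description, since arms of a family or cluster are not independent and all 4 groups were scaled together. Levels of the 485 arms kept in AFT024 ranked more alike between the exosomes of the lines (rho 0.91) or between their cells (0.89) than between AFT024 exosomes and AFT024 cells (0.70).

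**Figure D5:**
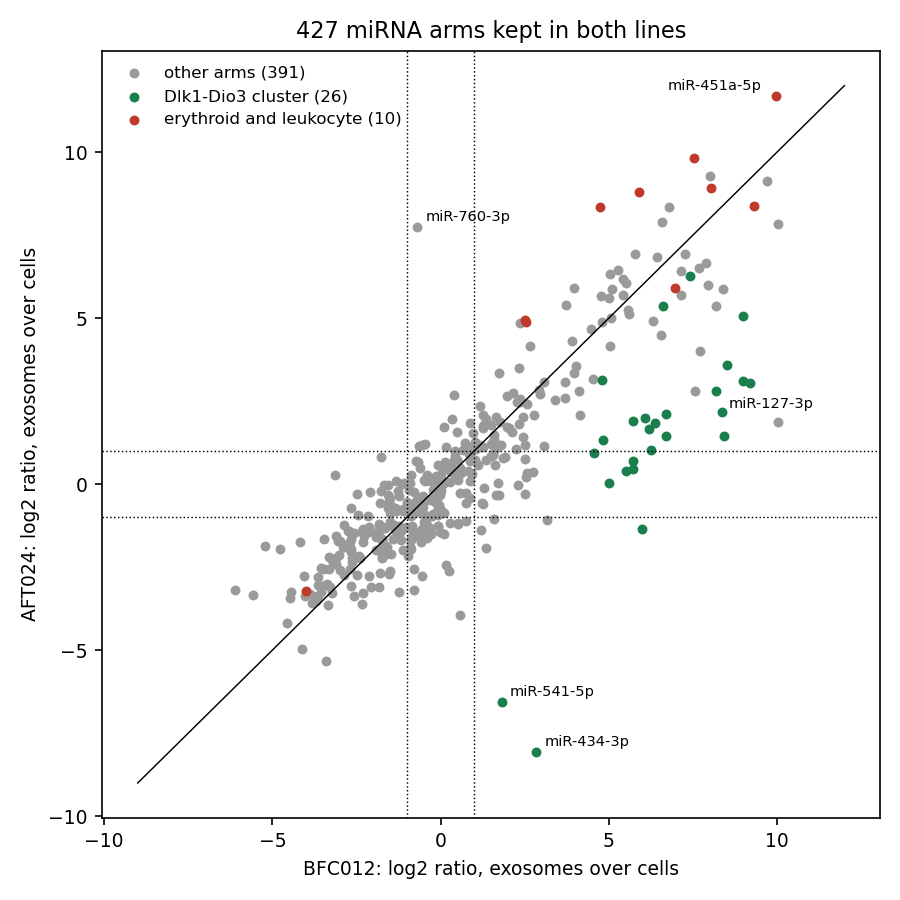
Log2 ratio of exosomes to cells in BFC012 (x) and AFT024 (y) for the 427 arms kept in both lines, with the Dlk1-Dio3 region in green and the erythroid and leukocyte list in red; dotted lines mark 2-fold and the solid line equal ratios. Most arms follow the line, the Dlk1-Dio3 arms lie to the right of it, and miR-434-3p and miR-541-5p lie in the lower right.

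The blood list kept its directions in BFC012, where the same 10 arms were 9 higher and 1 lower. miR-451a-5p had 5080 exosome reads and 38 cell reads there, a ratio of 1008, against 3298 in AFT024. miR-486a-5p had 28882 against 37520, a ratio of 5.80, against 29.5. The exosome counts of miR-486a-5p in both lines were close, and the cell counts were not. No arm was higher in AFT024 and lower in BFC012. The 7 arms lower in AFT024 and higher in BFC012 took in miR-434-3p, miR-541-5p and miR-431-5p of the Dlk1-Dio3 region. miR-146b-5p had 107 against 12248 reads in AFT024 (ratio 0.0656) and 2067 against 10442 in BFC012 (ratio 1.49), so cell counts were close and exosome counts apart.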

How the data were processed

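In the small RNA table deposited by the authors each group has 1 merged column of normalized signal per miRNA arm. Its values are whole multiples of a column's smallest positive value, which was taken as 1 read, and 100% of values were whole within 0.01 reads. The reads of AFT024 exosomes and cells were equal, for 2386 of 2386 arms, to the counts in the authors' deposited pairwise tables, whose p-values and fold changes were not used. Marker transcripts come from the deposited polyA table, whose values are FPKM per the file headers. The submitters' processing notes name TopHat, Cufflinks, Bowtie and the build mm10, with no role or version.

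RPM are an arm's recovered reads scaled to an equal total per group. Arms were kept at 10 RPM in at least 1 of the 2 groups, and 2-fold was called. Ratios are on the deposited scale, with exact Clopper-Pearson intervals at 95% of the split of an arm's reads between the groups (SciPy 1.17.1, pandas 2.3.3), and 3 reads stand in for 0. The intervals were tested only on simulated reads drawn independently, which cannot show how they cover PCR reads that are not independent. Mature sequences were matched by name to RefSeq. Numbered loci, such as let-7f-1 and let-7f-2, share a mature sequence and can hold the same reads.

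Named arms were the 12 highest and 12 lowest ratios among arms with 100 RPM in the higher group and 20 reads, the 8 most-read arms of each group, up to 4 members of each of 26 lists, up to 6 hairpins with arms in opposite directions, and the arms that differed most between the lines. Others were named after their values were seen, among them further Dlk1-Dio3 arms and 1-base pairs. Counts with the filter in both groups and values with the miR-760 arms exchanged or left out were added after the data were seen. The members, lists and alternatives were chosen with earlier results of these data known.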

Additional observations from a re-analysis of the deposited data

Results flagged for a closer look

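These arms were 2-fold or more lower in AFT024 exosomes than in AFT024 cells and 2-fold or more higher in BFC012 exosomes than in BFC012 cells, with counting intervals on opposite sides of 1. The difference between the lines was not tested, because each group is 1 merged value. miR-434-3p had a log2 ratio of -8.06 in AFT024 and 2.84 in BFC012, and miR-541-5p -6.57 and 1.81. In both, the cell reads differed most, 6002 against 21 for miR-434-3p and 4278 against 30 for miR-541-5p. miR-431-5p had -1.36 and 5.97, with 923 cell reads in AFT024 and 3 in BFC012. miR-205-5p had -1.07 and 3.15, miR-425-3p -1.04 and 1.60, miR-132-3p -1.37 and 1.19, and miR-542-5p -1.92 and 1.36. For miR-132-3p the cell reads were close, 2140 and 2658, and the exosome reads were 110 and 802.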

How the results depend on the processing

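The main limit is depth and scale: exosomes had 1120450 reads, so an arm with 0 reads there can be up to 2.68 RPM. The 155 arms higher in exosomes became 69 of 257 at 100 RPM, 486 of 1122 with no filter, 48 of 323 at 10 RPM in both groups, and 99 at a 4-fold threshold. The 174 lower became 77 in RPM, 95 in RPM without the 10 top arms of either group, 103 at 100 RPM and 77 at a 4-fold threshold. The median of -0.24 was 0.79 in RPM, 0.49 without the top arms, -0.02 with median-of-ratios scaling, -0.35 with a mean filter, -0.49 at 100 RPM, 0.59 with no filter, -0.12 with 1 entry per mature name, -0.36 with RefSeq sequences only and -0.79 with the filter in both groups. The last 2 were chosen after seeing the data. Requiring the whole interval past 2-fold left 127 higher and 140 lower. Of 131 named arms, 33 were higher and 62 lower, 31 of these were lower by 2-fold in RPM, and 0 changed sign among those called. No paired analysis was possible because the deposited columns are merged and carry no replicate numbers, and no replicate could be left out for the same reason.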
